A study of Macaca mulatta with 136 samples.

Results

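The genes described here handle the carotenoids of the macula and the lipids that travel with them. The set holds SCARB1, CD36, LPL, LIPC, APOE, ABCA1, BCO1, BCO2, STARD3 and GSTP1. Each gene was matched by the symbol that the authors assigned to each macaque identifier. All 10 genes were found, each as a single entry, among 19422 different gene identifiers.

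The yellow pigment of the primate macula is made of the xanthophylls lutein and zeaxanthin, which the eye cannot make and takes up from blood lipoproteins. Scavenger receptors take up lipoprotein cargo, lipases and apolipoproteins remodel the particles, and ABC transporters return lipid to them. Inside the cell, binding proteins hold xanthophylls, and the carotenoid oxygenases cleave carotenoids.

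Neural retina and the underlying retinal pigment epithelium with choroid (RPE/choroid) were sampled post mortem from 4 eyes of 2 adult rhesus macaques, aged 13 and 18 years. A 2 mm punch was taken at the fovea, the perimacula, a nasal location and the temporal periphery of each eye, giving 8 groups of 4 libraries, 1 per eye. The animals were untreated and carried no engineered allele, as far as the labels say, and are called RM03 and RM04, with OD for the right and OS for the left eye. Fellow eyes share an animal, so the p-values below describe 4 eyes and not 4 animals. A punch is bulk tissue, so fewer cells of a type and less RNA per cell cannot be told apart.

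Each of the 32 libraries held between 42448903 and 78574055 estimated counts. The periphery libraries were all sequenced on a flow cell of their own, so location and flow cell cannot be told apart in any comparison with the periphery. The other 3 locations shared 2 flow cells. The summed level of 7 rod markers was 3310 to 23000 CPM (counts scaled to a common library size) in retina and 25.8 to 760 CPM in RPE/choroid. The summed level of 6 RPE markers was 147 to 1150 CPM in retina and 10000 to 24800 CPM in RPE/choroid. Each labelled tissue carried its defining markers, and low levels of each list were also measured in the other tissue. The RPE/choroid periphery library of RM03 OS stood apart, with RPE markers at 11100 CPM against 15700 to 24800 CPM in the other eyes and Schwann cell markers at 13500 CPM against 524 to 4710 CPM. So did the RPE/choroid perimacula library of RM03 OD. Its RPE markers were at 10000 CPM against 13100 to 15100 CPM in the other eyes, and its Schwann cell markers at 8210 CPM against 156 to 2150 CPM.

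CPM values were scaled by the trimmed mean of M-values (TMM) and are listed in the order RM03 OD, RM03 OS, RM04 OD and RM04 OS. Levels are compared only within a gene, since gene lengths were not used. A change is called where the p-value of edgeR's quasi-likelihood test, adjusted over all genes tested by the Benjamini-Hochberg method, is under 0.05. Positive log2 fold changes mean a higher level at the fovea, or in retina where the tissues are compared, and errors are standard errors (SE).

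**Figure D1:**
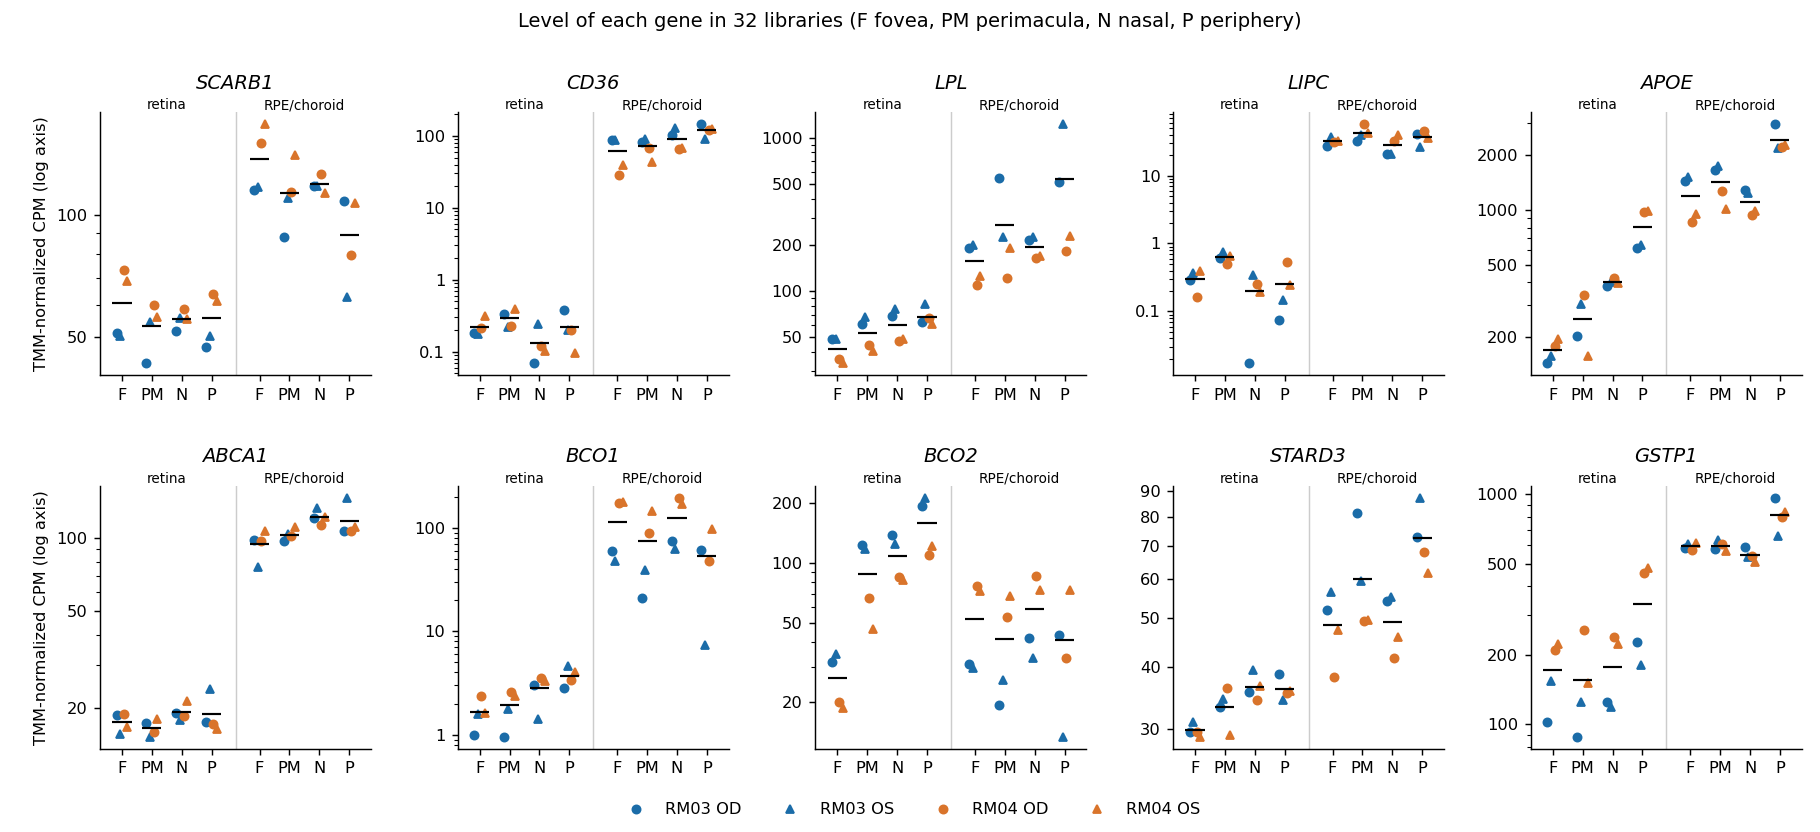
TMM-normalized CPM (log axis) of the 10 genes in each library, by tissue and location (F fovea, PM perimacula, N nasal, P periphery). Points are eyes, coloured by animal, and bars are group means over 4 eyes. BCO1, BCO2, APOE and LPL in retina have their lowest means at the fovea and their highest at the periphery. The same holds for CD36, STARD3 and LPL in RPE/choroid.

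The genes were mostly higher in RPE/choroid than in retina. At the fovea 9 of the 10 differed and all 9 were higher in RPE/choroid, where 75.5% of all genes tested differed between the tissues. At the perimacula all 10 differed, 9 of them higher in RPE/choroid, beside 76.7% of all genes. At the nasal location 9 differed, all higher in RPE/choroid, beside 76.2% of all genes, and at the periphery all 10 differed, 9 of them higher in RPE/choroid, beside 75.7% of all genes. The median log2 fold change of the genes, retina over RPE/choroid, was -2.16 at the fovea and -2.11 at the periphery, against -0.0 and 0.02 over all genes. BCO2 was the gene that did not follow.

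In retina most called changes with location went the same way, lower at the fovea. Against the periphery 6 of the 10 genes were lower at the fovea and none higher, beside 67.0% of all genes called. Against the nasal location 5 were lower and none higher, beside 52.2%. Against the perimacula LPL and BCO2 were lower and SCARB1 higher, beside 35.2%. These shares were close to those of all genes tested, so the number of called genes does not set the group apart. In RPE/choroid 6 genes differed between the fovea and the periphery, 5 lower and 1 higher at the fovea, beside 44.1% of all genes. Without RM03 OS, whose peripheral library stood apart, 5 of the 10 were called, SCARB1 being lost. Markers of other cell types moved between the same locations. The mean summed level fell from 5690 CPM at the fovea to 720 CPM at the periphery for smooth muscle (4 of 4 markers called) and from 2220 to 1250 CPM for endothelium (7 of 7 called), and was 1920 and 6200 CPM for fibroblasts (2 of 4 called). The part of these cell types in the RPE/choroid changes of the 10 genes was not tested. None was called in RPE/choroid against the perimacula, where 0.0447% of genes passed, or against the nasal location, where 0.361% passed. With edgeR 2 of the 10 reached an unadjusted p under 0.05 in each of those comparisons, and with DESeq2 none was called in either. These results depended on the fit. With only the compared locations fitted, 357 genes in place of 7 were called against the perimacula, and 1 of the 10 was called against the nasal location. With 1 of the flow cells alone 1 of the 10 was also called against the nasal location.

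**Figure D2:**
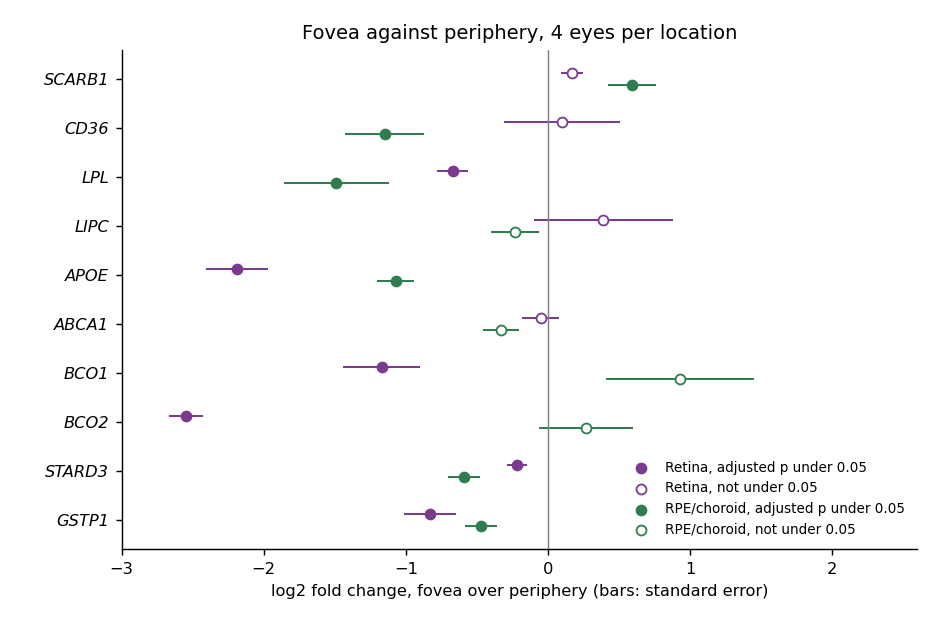
Log2 fold change of each gene, fovea over periphery, in retina and RPE/choroid (4 eyes per location). Bars are standard errors and filled points have an adjusted p under 0.05. BCO2 lies at -2.55 in retina and, not called, at 0.27 in RPE/choroid.

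SCARB1 encodes scavenger receptor class B type 1, which takes up cholesterol esters and carotenoids from high-density lipoprotein. In retina it was nearly level, at 51.2, 50.3, 73.1 and 68.6 CPM at the fovea and 47.3, 50.3, 63.9 and 61.2 CPM at the periphery. The perimacula held 43.1, 54.6, 60 and 55.9 CPM, and the nasal values ran from 51.8 to 58.6 CPM. All 4 retinal locations overlapped. The higher level at the fovea than at the perimacula was small (0.23, SE 0.08, adjusted p = 0.0439) and rested on the settings, since the call was lost without RM03 OD, without RM04 OD or without RM04 OS (adjusted p = 0.231, 0.268 and 0.242).

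In RPE/choroid SCARB1 stood at 115, 117, 150 and 167 CPM at the fovea and at 108, 62.8, 79.8 and 107 CPM at the periphery. Every foveal library exceeded every peripheral one, and the fovea was 1.54-fold higher by the ratio of means. The log2 fold change was 0.59 (SE 0.17, adjusted p = 0.0172), the only one of the 10 genes called higher at the fovea in this tissue. Without RM03 OS it was 0.51 with an adjusted p of 0.0665, without RM04 OD 0.49 with 0.0899 and without RM04 OS 0.59 with 0.0728. Per 1000 CPM of summed RPE markers, SCARB1 was 8.43 ± 0.743 CPM at the fovea, 8.77 ± 0.408 at the perimacula, 7.21 ± 0.931 nasally and 4.88 ± 0.595 at the periphery (SD, n = 4 eyes). This ratio was formed after the values were seen, and the part of RPE content in the SCARB1 difference was not tested. The change with location differed between the tissues, by -0.48 (SE 0.18, adjusted p = 0.0334), although the retina itself showed no call against the periphery (0.17, SE 0.08, adjusted p = 0.0767). That difference between the tissues was lost without RM03 OS, RM04 OD or RM04 OS (adjusted p = 0.232, 0.264 and 0.15) and with another scaling (adjusted p = 0.0501). Among all genes 43.5% differed between the tissues in this way, and 4 of the 10 did.

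CD36 encodes another scavenger receptor, which binds oxidized lipids and fatty acids and serves the RPE in taking up photoreceptor outer segments. It was almost confined to RPE/choroid. Retinal libraries held 4 to 30 estimated counts each, which is 0.0688 to 0.387 CPM, while RPE/choroid libraries held 28.2 to 145 CPM. The log2 fold change between the tissues was -7.95 (SE 0.37) at the fovea and -9.16 (SE 0.38) at the periphery. At so few retinal counts no change of CD36 with location was detectable in retina. CD36 had passed the filter on low counts there all the same, as did the other 9 genes in every fit.

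In RPE/choroid CD36 was higher at the periphery than at the fovea. It was 87.2, 88.4, 28.2 and 39 CPM at the fovea, 83.4, 91.9, 67.6 and 42.7 CPM at the perimacula, 104, 129, 66.2 and 67.8 CPM nasally and 145, 90.5, 121 and 123 CPM at the periphery. Each peripheral value exceeded each foveal one. The difference was -1.15 (SE 0.28, adjusted p = 0.00725), but the animals contributed unequally. Fitted alone, RM04 gave -1.86 (adjusted p = 0.00468) and RM03 gave -0.43 (adjusted p = 0.235), a split made after the values were seen and not itself tested. Without RM04 OD the value was -0.87 (adjusted p = 0.05, not under the threshold) and without RM04 OS it was -0.94 (adjusted p = 0.0699). Macrophage and microglia markers, 8 of 8 measured, summed to 742 to 1530 CPM at the fovea and 910 to 1160 CPM at the periphery, with means of 1150 and 1060 CPM, and none of the 8 was at 0 throughout a group. Of the 8 markers, 3 were called lower and 1 higher at the fovea than at the periphery, and 4 were not called. CD36 per 1000 CPM of their sum was 50.3 ± 11.4 CPM at the fovea and 114 ± 23 CPM at the periphery (SD, n = 4 eyes). The part of these or other cells in the CD36 difference was not tested.

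LPL encodes lipoprotein lipase, which releases fatty acids from circulating particles. In retina it was 48.4, 48.8, 36.1 and 33.8 CPM at the fovea, 61.3, 67.4, 44.7 and 40.8 CPM at the perimacula, 68.4, 76.0, 47.6 and 48.5 CPM nasally and 62.4, 82.2, 66.6 and 60.8 CPM at the periphery. The fovea was lowest in each of the 4 eyes. It was lower than the periphery by a log2 fold change of -0.67 (SE 0.11, adjusted p = 0.000139) and than the nasal location by -0.48 (SE 0.10, adjusted p = 0.00111). The smaller difference from the perimacula (-0.30, SE 0.11, adjusted p = 0.0486) was no longer called with each eye as a replicate block (adjusted p = 0.0556) or without any 1 of the 4 eyes (adjusted p = 0.0522 to 0.114).

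RPE/choroid held more LPL, with a wide spread between eyes. It was 191, 201, 109 and 126 CPM at the fovea, 545, 224, 122 and 192 CPM at the perimacula, 214, 225, 164 and 168 CPM nasally and 516, 1220, 181 and 229 CPM at the periphery. The periphery was higher than the fovea in 4 of 4 eyes, by 1.67- to 6.05-fold, and the groups overlapped because the foveal values of RM03 exceeded a peripheral value of RM04. The log2 fold change was -1.49 (SE 0.37, adjusted p = 0.00747). It was -1.0 (adjusted p = 0.0166) without RM03 OS, whose peripheral library held the highest value, and -0.81 (adjusted p = 0.0457) in RM04 alone.

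Schwann cell markers moved with LPL in this tissue. The summed level of the 4 markers measured was 138 to 162 CPM at the fovea and 95.8 to 163 CPM at the nasal location. It was 8210, 156, 185 and 2150 CPM at the perimacula and 4710, 13500, 524 and 1060 CPM at the periphery. The 3 RPE/choroid libraries with the highest LPL were the 3 with the highest Schwann cell sums, and at the perimacula the only eyes with raised sums, RM03 OD and RM04 OS, had the higher LPL of their animal. All 4 were called higher at the periphery than at the fovea, and none was at 0 throughout a group. Adipocyte markers, which can also accompany LPL, summed to 3.25 to 6.94 CPM at the fovea and 9.54 to 41.1 CPM at the periphery, with ADIPOQ at 0 in all 4 peripheral libraries. Of the 5 measured 3 were tested, and all 3 were called lower at the fovea than at the periphery (median log2 fold change -1.32). The part of either cell type in the LPL values was not tested.

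**Figure D3:**
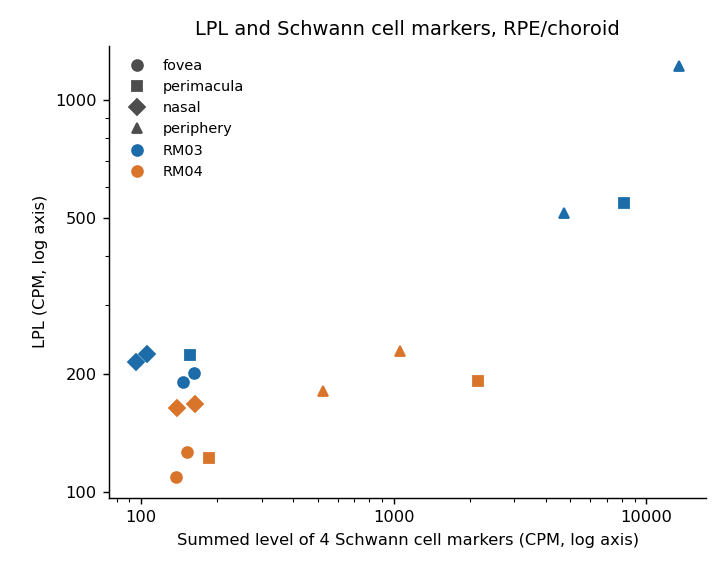
LPL against the summed level of 4 Schwann cell markers in the 16 RPE/choroid libraries (both in CPM, log axes), with symbols for location and colours for animal. LPL is 516, 545 and 1220 CPM in the libraries with Schwann cell sums of 4710, 8210 and 13500 CPM, all from RM03.

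LIPC encodes hepatic lipase, which remodels high-density lipoprotein. Like CD36 it was an RPE/choroid transcript here, at 20.8 to 56.8 CPM against 0.0172 to 0.749 CPM and 1 to 41 estimated counts in retina. At the fovea it was 27.2, 36.3, 31.3 and 32.5 CPM in RPE/choroid, at the perimacula 32.7, 39.2, 56.8 and 41.7 CPM, at the nasal punch 20.8, 20.9, 32.5 and 38.9 CPM, and at the periphery 40.7, 26.3, 45.9 and 36 CPM. These groups overlapped and no location comparison was called (adjusted p = 0.445, 0.603 and 0.311 against perimacula, nasal and periphery). The difference between the tissues was -6.71 (SE 0.41) at the fovea and -7.24 (SE 0.41) at the periphery. Retinal LIPC was 0.491 to 0.749 CPM at the perimacula and did not exceed 0.541 CPM elsewhere, a difference from the fovea that was not called (-0.99, SE 0.47, adjusted p = 0.126) but was with only the compared locations fitted (-1.02, adjusted p = 0.0244). Against the periphery retinal LIPC gave 0.39 (SE 0.49, adjusted p = 0.502), 1.24 (adjusted p = 0.0249) without RM04 OD, 1.66 (adjusted p = 0.0257) in RM03 alone and -0.41 (adjusted p = 0.583) in RM04 alone, so no direction was read from it.

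APOE encodes apolipoprotein E, the main lipid carrier made within the retina, where Müller glia and RPE are its known sources. In retina it was lowest at the fovea and highest at the periphery. The fovea held 143, 158, 179 and 196 CPM, the perimacula 203, 303, 340 and 158 CPM, the nasal punch 380, 404, 425 and 396 CPM, and the periphery 620, 639, 971 and 993 CPM. Perimacula, nasal location and periphery did not overlap each other, while fovea and perimacula did, because RM04 OS had 196 CPM at the fovea and 158 CPM at the perimacula. The fovea was lower than the periphery by a log2 fold change of -2.19 (SE 0.22, adjusted p = 3.33e-06), which was 4.05- to 5.43-fold in the single eyes. Against the nasal location the difference was -1.22 (SE 0.20, adjusted p = 0.000147), and against the perimacula it was -0.53 (SE 0.21, adjusted p = 0.0697). Without RM04 OS the perimacular difference was -0.77 (adjusted p = 0.0065).

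Markers of Müller glia rose with retinal APOE, though by less. All 6 were called lower at the fovea than at the periphery, and their summed level was 1200 to 1270 CPM at the fovea, 1710 to 1990 CPM at the perimacula, 2320 to 2440 CPM nasally and 3280 to 4690 CPM at the periphery. The same RM04 OS perimacular library had the lowest Müller glia sum of its group, as well as the lowest APOE. Per 1000 CPM of these markers APOE was 137 ± 18.4 CPM at the fovea, 131 ± 37.7 at the perimacula, 168 ± 6.17 nasally and 204 ± 27.6 at the periphery (SD, n = 4 eyes). RPE markers in retina were also higher at the periphery (5 of 6 called), from 147 to 229 CPM at the fovea to 593 to 1150 CPM at the periphery. The part of either cell type in the APOE gradient was not tested.

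In RPE/choroid APOE was 1450, 1520, 856 and 955 CPM at the fovea, 1670, 1740, 1280 and 1020 CPM at the perimacula, 1290, 1240, 941 and 991 CPM nasally and 2970, 2190, 2230 and 2290 CPM at the periphery. Every peripheral library stood above every other library of the tissue, and the other locations overlapped. Per 1000 CPM of RPE markers APOE was 78.2 ± 36.3 CPM at the fovea and 138 ± 43.2 CPM at the periphery, and per 1000 CPM of Müller glia markers, some of which the RPE also expresses, 486 ± 303 and 1010 ± 564 CPM (SD, n = 4 eyes). Both ratios overlapped between these locations. The Müller glia sum was level, with means of 2970 and 2940 CPM, but its genes were not. Of these 6 markers 4 were called lower at the fovea than at the periphery (median log2 fold change -0.99). Of the 6 RPE markers 2 were (median -0.02). The part of cell content in the APOE difference was not tested. The difference between fovea and periphery was -1.07 (SE 0.13, adjusted p = 0.000114). It was smaller than in retina, the difference between the tissues being -1.23 (SE 0.31, adjusted p = 0.00211) on the log2 scale. Against the nasal location the tissues differed by -1.34 (SE 0.31, adjusted p = 0.00235), in a comparison where 2 of the 10 genes and 23.5% of all genes were called. As a result the excess of RPE/choroid over retina was 7.06-fold at the fovea and 3.0-fold at the periphery by the ratio of means.

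ABCA1 encodes the transporter that loads cholesterol onto apolipoprotein A-I. It was even across the retina, with group means of 16.6 to 19.3 CPM and no called change with location. The fovea held 18.7, 15.6, 18.9 and 16.7 CPM and the periphery 17.5, 24, 17.2 and 16.4 CPM. In RPE/choroid it was 98.5, 75.9, 97.6 and 107 CPM at the fovea, 97.1, 104, 102 and 111 CPM at the perimacula, 121, 133, 113 and 122 CPM nasally and 107, 147, 107 and 111 CPM at the periphery. Fovea and nasal values did not overlap, but the nasal comparison was not called (-0.36, SE 0.12, adjusted p = 0.171), nor was the periphery (-0.33, SE 0.13, adjusted p = 0.0553). RPE/choroid exceeded retina by 4.86- to 7.44-fold across all eyes and locations, with log2 fold changes of -2.44 to -2.67 and SE of 0.12 to 0.13.

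BCO2 encodes beta-carotene oxygenase 2, a mitochondrial enzyme of the carotenoid oxygenase family whose activity was not measured here. In retina it had the largest location change of the set. The fovea held 31.7, 34.7, 19.9 and 18.6 CPM, the perimacula 123, 117, 66.2 and 46.3 CPM, the nasal punch 138, 125, 85.2 and 81.8 CPM, and the periphery 193, 213, 110 and 121 CPM. Every foveal library lay below every library from elsewhere, while neighbouring locations farther out overlapped. The log2 fold change was -1.65 (SE 0.11, adjusted p = 8.41e-06) against the perimacula, -2.02 (SE 0.11, adjusted p = 1.9e-08) against the nasal location and -2.55 (SE 0.12, adjusted p = 3.48e-08) against the periphery.

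The peripheral excess of BCO2 was alike in the 4 eyes, at 6.08-, 6.14-, 5.53- and 6.50-fold, although the animals differed in level. RM03 had 1.58 to 2.14 times the retinal BCO2 of RM04, by the ratio of means at each location. Fitted alone, RM03 gave -2.52 (adjusted p = 9.73e-05) and RM04 gave -2.51 (adjusted p = 0.000632) for fovea against periphery.

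Rod markers followed the same course, and all 7 were called lower at the fovea than at the periphery. The summed level of 7 rod markers was 3310, 3900, 3500 and 3740 CPM at the fovea, 12300, 12100, 14300 and 8800 CPM at the perimacula, 14000, 12600, 14300 and 14800 CPM nasally and 21100, 23000, 20600 and 21600 CPM at the periphery. The mean of this sum at the periphery was 5.98 times that at the fovea, beside 6.07 times for BCO2. Taken gene by gene, the median log2 fold change of the 7 markers, fovea over periphery, was -2.2, beside -2.55 for BCO2. Per 1000 CPM of rod markers, retinal BCO2 was 9.59 and 8.90 CPM at the fovea of RM03 and 9.12 and 9.26 CPM at its periphery. In RM04 it was 5.69 and 4.97 CPM at the fovea and 5.35 and 5.59 CPM at the periphery. Over all 4 locations the ratio stayed between 8.90 and 10.0 in RM03 and between 4.64 and 5.95 in RM04. The ratio was formed after the values were seen, and whether rods were the source of BCO2 was not tested. Müller glia markers, which also rose outward, had a peripheral sum 3.18 times the foveal one (median log2 fold change -1.4). RLBP1, a marker on that list, was the gene with the pattern most like BCO2 (r = 0.928, described below). Whether Müller glia were a source of BCO2 was not tested either.

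**Figure D4:**
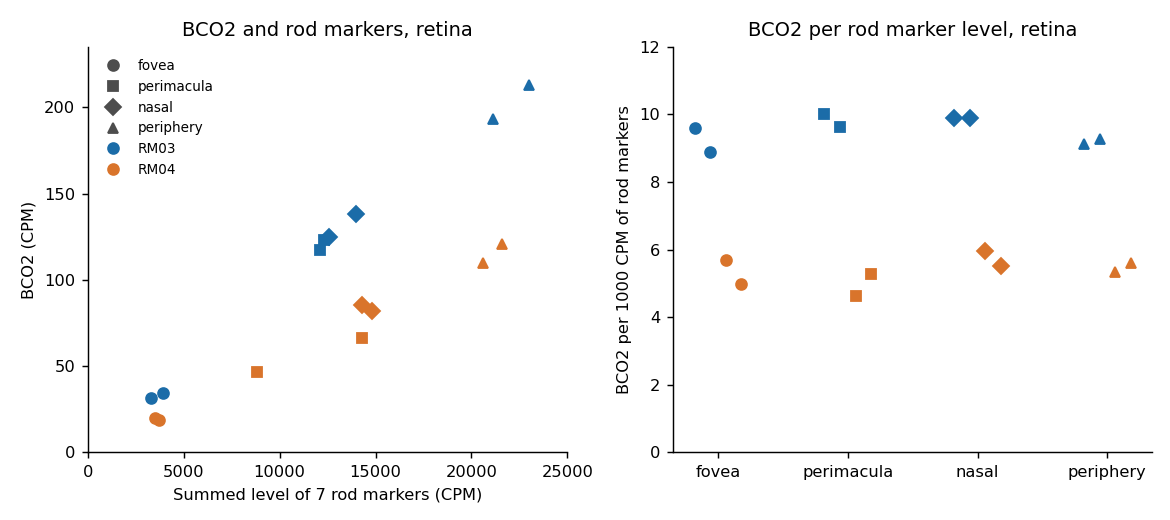
Left, BCO2 against the summed level of 7 rod markers in the 16 retinal libraries (CPM). Right, BCO2 per 1000 CPM of rod markers by location, coloured by animal: RM03 lies between 8.90 and 10.0 and RM04 between 4.64 and 5.95 at every location.

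RPE/choroid showed no such gradient. BCO2 was 30.9, 29.4, 76.6 and 71.8 CPM at the fovea, 19.2, 25.6, 53.6 and 67.8 CPM at the perimacula, 41.9, 33.1, 86.2 and 73.3 CPM nasally and 43.3, 13.3, 33.3 and 72.9 CPM at the periphery. All locations overlapped, and the fovea differed from the periphery by 0.27 (SE 0.33, adjusted p = 0.546). The change with location differed between the tissues against the perimacula (-2.09, SE 0.65, adjusted p = 0.0294), where BCO2 was the 1 gene of the 10 called beside 15.2% of all genes. It also differed against the nasal location (-1.86, SE 0.65, adjusted p = 0.0381) and the periphery (-2.95, SE 0.66, adjusted p = 0.000671). The call against the perimacula was lost without RM03 OD, RM03 OS or RM04 OD (adjusted p = 0.151, 0.0591 and 0.169). That against the nasal location was lost without any 1 of the 4 eyes (0.0577 to 0.156). These fits shared 1 monkey term between the tissues. With a separate term per tissue, chosen after the values were seen, BCO2 gave -2.07 against the perimacula (adjusted p = 0.000113). It gave -1.85 against the nasal location (adjusted p = 0.000155) and -2.88 against the periphery (adjusted p = 1.37e-07). Leaving out an eye was not tried with separate terms.

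The fitted order of the tissues differed between locations for BCO2. At the periphery retina exceeded RPE/choroid in 4 of 4 eyes (2.02, SE 0.48, adjusted p = 0.000449) and at the perimacula in 3 of 4 eyes (1.16, SE 0.47, adjusted p = 0.0284). The perimacular call was lost without RM03 OD (0.69, adjusted p = 0.276) or RM03 OS (0.77, adjusted p = 0.165). At the fovea the fitted value had the other sign, -0.94 (SE 0.47, adjusted p = 0.0714), with RPE/choroid 3.84- and 3.86-fold higher in RM04 but 0.975 and 0.848 times the retina in RM03. At the nasal location the fitted value was 0.92 (SE 0.46, adjusted p = 0.0733). With a monkey term fitted in each tissue, an alternative chosen after the values were seen, the foveal value was -0.91 (adjusted p = 0.00115). The nasal value was 0.94 (adjusted p = 0.00079) and the perimacular value 1.16 (adjusted p = 8.38e-05) in that fit.

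BCO1 encodes beta-carotene oxygenase 1, which cleaves beta-carotene to retinal. It was chiefly an RPE/choroid transcript, at 60.3, 48.0, 172 and 176 CPM at the fovea, 20.9, 39.4, 89.8 and 146 CPM at the perimacula, 75.3, 62.2, 195 and 170 CPM nasally and 60.9, 7.39, 47.3 and 97.3 CPM at the periphery. The animals parted at 3 of the 4 locations. RM04 exceeded RM03 by 3.22-fold at the fovea, 3.90-fold at the perimacula and 2.65-fold at the nasal location, with no overlap at any of the 3. No location comparison was called in this tissue, and the fovea differed from the periphery by 0.93 (SE 0.52, adjusted p = 0.169). Without RM03 OD that value was 1.66 (adjusted p = 0.0179), and in RM04 alone it was 1.26 (adjusted p = 0.046).

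The RM03 OS periphery library, with the least RPE marker signal of its group, also held the lowest BCO1 (7.39 CPM) and the lowest BCO2 (13.3 CPM) of all 16 RPE/choroid libraries. Per 1000 CPM of RPE markers BCO1 was 4.03, 3.81, 9.15 and 9.34 CPM at the fovea and 2.45, 0.663, 3.01 and 4.06 CPM at the periphery. The part of RPE content in these differences was not tested. BCO1 and BCO2 varied together across RPE/choroid libraries, with a Pearson r of 0.964 over 16 libraries on the log2 scale. Those libraries share 2 animals, 4 eyes and a varying RPE marker level, so the r is a description only.

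**Figure D5:**
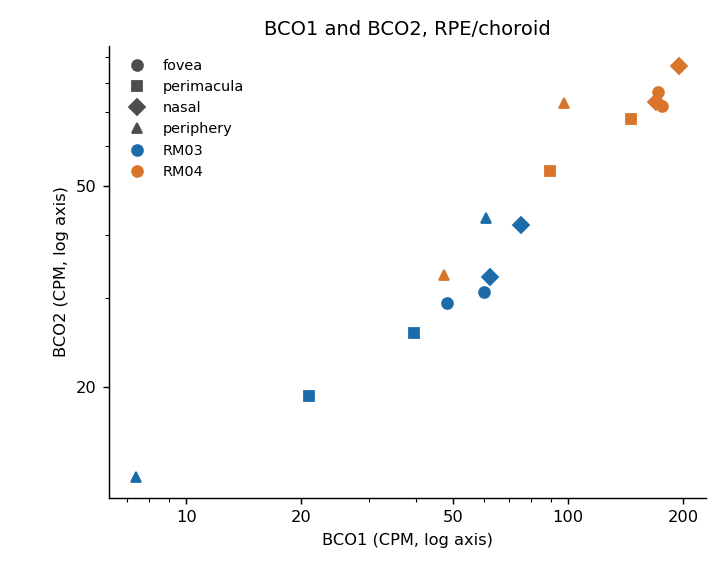
BCO2 against BCO1 in the 16 RPE/choroid libraries (CPM, log axes), with symbols for location and colours for animal. The RM03 OS periphery library lies lowest for both genes, at 7.39 CPM for BCO1 and 13.3 CPM for BCO2.

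In retina BCO1 was low, at 1.00, 1.60, 2.36 and 1.63 CPM at the fovea, 0.955, 1.77, 2.59 and 2.38 CPM at the perimacula, 3.06, 1.43, 3.54 and 3.30 CPM nasally and 2.80, 4.62, 3.42 and 4.08 CPM at the periphery. Each retinal library held 40 to 344 estimated counts. Foveal values lay below all peripheral values, by -1.17 on the log2 scale (SE 0.27, adjusted p = 0.00222). The nasal difference of -0.74 (SE 0.28, adjusted p = 0.0369) lost its call without RM03 OD (-0.44, adjusted p = 0.239), RM04 OD (-0.82, adjusted p = 0.0816) or RM04 OS (-0.65, adjusted p = 0.169). RPE markers in the same retinal libraries had a peripheral sum 5.45 times the foveal one, and BCO1 per 1000 CPM of them was 9.87 ± 4.05 CPM at the fovea and 4.03 ± 0.49 CPM at the periphery (SD, n = 4 eyes). The part of RPE in the retinal BCO1 values was not tested. The change with location against the periphery differed between the tissues by -2.29 (SE 0.64, adjusted p = 0.00474), and without RM04 OD by -2.16 (adjusted p = 0.0535).

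STARD3 encodes the late endosomal sterol carrier that binds lutein in the macula. In retina its range was narrow, at 29.6, 31, 29.6 and 28.9 CPM at the fovea, 33.1, 34.5, 36.2 and 29.1 CPM at the perimacula, 35.6, 39.3, 34.2 and 36.6 CPM nasally and 38.7, 34.3, 35.4 and 35.8 CPM at the periphery. Foveal values lay below all nasal and all peripheral values. The differences were small, at -0.25 (SE 0.07, adjusted p = 0.0109) against the nasal location and -0.22 (SE 0.07, adjusted p = 0.0174) against the periphery. The peripheral call was lost without RM03 OD, RM04 OD or RM04 OS (adjusted p = 0.212, 0.0584 and 0.0597), and the nasal call without RM03 OD (adjusted p = 0.0806).

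In RPE/choroid STARD3 was 52.0, 56.4, 38.1 and 47.4 CPM at the fovea, 81.5, 59.5, 49.4 and 49.6 CPM at the perimacula, 54.2, 55.2, 41.7 and 45.9 CPM nasally and 72.7, 87.3, 68.0 and 61.6 CPM at the periphery. Each peripheral library exceeded each foveal one, with a difference of -0.59 (SE 0.11, adjusted p = 0.00138). It was -0.56 (adjusted p = 0.0861) in RM03 alone and -0.61 (adjusted p = 0.016) in RM04 alone. The perimacular library of RM03 OD, at 81.5 CPM, was the one with a Schwann cell marker sum of 8210 CPM, and the peripheral library of RM03 OS, at 87.3 CPM, had a sum of 13500 CPM. The peripheral library of RM04 OD held 68.0 CPM at a sum of 524 CPM, and the perimacular library of RM04 OS 49.6 CPM at 2150 CPM. The part of Schwann cells in the STARD3 values was not tested. The difference from the perimacula was not called (-0.29, SE 0.11, adjusted p = 0.369).

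GSTP1 encodes the glutathione S-transferase that binds zeaxanthin in the macula. Its retinal level differed by animal, at 102, 155, 211 and 223 CPM at the fovea, 88.2, 125, 258 and 151 CPM at the perimacula, 125, 119, 239 and 224 CPM nasally and 228, 181, 454 and 478 CPM at the periphery. RM04 exceeded RM03 at each of the 4 locations with no overlap. The periphery was higher than the fovea within each eye, by 1.16- to 2.24-fold, and the groups overlapped across animals. The log2 fold change was -0.83 (SE 0.18, adjusted p = 0.00169). It was -0.57 (adjusted p = 0.0997) in RM03 alone and -1.03 (adjusted p = 0.0137) in RM04 alone. Without the monkey as covariate it was -0.9 and not called (adjusted p = 0.0569). Perimacula (0.24, SE 0.18, adjusted p = 0.338) and nasal location (0.03, SE 0.17, adjusted p = 0.893) showed no call.

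In RPE/choroid GSTP1 was nearly the same in all libraries of the fovea, at 585, 607, 572 and 613 CPM, of the perimacula, at 579, 633, 610 and 567 CPM, and of the nasal location, at 592, 534, 539 and 509 CPM. The periphery held 967, 660, 794 and 837 CPM, above all the others. The log2 fold change of fovea over periphery was -0.47 (SE 0.11, adjusted p = 0.00507), and in RM03 alone it was -0.45 and not called (adjusted p = 0.169). RPE/choroid exceeded retina by 3.44-fold at the fovea and 2.43-fold at the periphery by the ratio of means.

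Differences between the animals ran through much of the set. At fovea, perimacula and nasal location alike, RM03 and RM04 did not overlap in retina for 4 of the 10 genes, with BCO2 and LPL higher in RM03 and BCO1 and GSTP1 higher in RM04. Of all genes tested in retina, 24.4% met this rule, which was chosen after the values were seen. In RPE/choroid 6 of the 10 did, with CD36, STARD3, APOE and LPL higher in RM03 and BCO1 and BCO2 higher in RM04, beside 30.2% of all genes. At these locations BCO2 was thus higher in RM03 in retina and higher in RM04 in RPE/choroid. The rule leaves out the periphery. There BCO2 and GSTP1 in retina and STARD3 and LPL in RPE/choroid still did not overlap. LPL and BCO1 in retina and CD36, APOE, BCO1 and BCO2 in RPE/choroid did overlap there. Retinal genes that had not met the rule also parted at the periphery, with SCARB1, APOE and LIPC higher in RM04 and CD36 and ABCA1 higher in RM03. The share of all genes that part at the periphery was not computed. With 2 animals, these differences cannot be assigned to age or to any other property of the animals.

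The wider pathways around these genes were described by lists of 8 kinds, counting genes tested between fovea and periphery. Of all 15380 genes tested in retina 4770 were called higher and 5542 lower at the fovea, 67.0% together, and of all 15674 in RPE/choroid 3317 were higher and 3594 lower, 44.1% together. The lists' shares of called genes are read against these, and nothing is called particular to a list. Of 20 cholesterol synthesis genes in retina 12 were higher and 3 lower at the fovea, with a median log2 fold change of 0.96 against -0.06 over all genes. SREBF2, the sterol-sensing transcription factor, was 3.59-fold higher at the fovea by the ratio of means (1.90, SE 0.08, adjusted p = 3.47e-08), and PMVK, a kinase of the mevalonate pathway, was lower there (-0.95, SE 0.21, adjusted p = 0.0016). In RPE/choroid 4 of the same 20 genes were higher and 4 lower at the fovea, with a median of -0.11.

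Of 14 receptor and uptake genes in retina 4 were higher and 8 lower at the fovea (median -0.42), with VLDLR, a receptor for triglyceride-rich lipoproteins and reelin, at 44.5 ± 2.47 CPM at the fovea and 125 ± 11.1 CPM at the periphery (-1.44, SE 0.10, adjusted p = 1.87e-07). Of 15 in RPE/choroid 3 were higher and 3 lower (median 0.17), the endocytic receptor LRP1 among the higher (0.52, SE 0.08, adjusted p = 0.000363) and the macrophage scavenger receptor MSR1 among the lower (-1.18, SE 0.25, adjusted p = 0.00287). Of 14 apolipoprotein and lipoprotein remodelling genes in retina 3 were higher and 8 lower (median -0.70). CLU, the apolipoprotein clusterin, was 333 ± 14.8 CPM at the retinal fovea and 961 ± 159 CPM at the periphery (-1.47, SE 0.11, adjusted p = 3.13e-07). Of 16 in RPE/choroid 5 were higher and 5 lower (median -0.0), and APOC1, an apolipoprotein of triglyceride-rich particles, was 7.17-fold higher at the periphery by the ratio of means (-2.85, SE 0.12, adjusted p = 4.22e-07).

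Of 11 cholesterol efflux and LXR target genes in retina 3 were higher and 7 lower at the fovea (median -0.57), including ABCG1, a lipid exporter like ABCA1 (-1.50, SE 0.15, adjusted p = 3.61e-06). In RPE/choroid 2 of 11 were higher and 1 lower (median -0.30). For sterol movement inside the cell, 8 of 20 genes were higher and 6 lower in retina (median 0.08), and 8 higher and 3 lower in RPE/choroid (median -0.10). NPC2, a lysosomal cholesterol carrier, was lower at the fovea in both tissues (-1.32, SE 0.12, adjusted p = 1.65e-06 in retina and -0.59, SE 0.09, adjusted p = 0.000385 in RPE/choroid).

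Of 15 vitamin A and carotenoid handling genes in retina 2 were higher and 11 lower at the fovea (median -1.01). In RPE/choroid 1 was higher and 5 lower (median -0.04). The one higher there was STRA6, the receptor for retinol-binding protein, at 941 ± 247 CPM at the fovea and 207 ± 171 CPM at the periphery (2.12, SE 0.57, adjusted p = 0.0118). ALDH1A3, which makes retinoic acid, was lower at the fovea in both tissues (-2.12, SE 0.34, adjusted p = 0.000163 in retina and -3.03, SE 0.35, adjusted p = 6.74e-05 in RPE/choroid). Of 17 glutathione transferase and glutathione synthesis genes in retina 3 were higher and 6 lower (median -0.06), and of 18 in RPE/choroid 2 were higher and 9 lower (median -0.29). MGST1, a membrane-bound glutathione transferase, was lower at the fovea in retina (-1.42, SE 0.12, adjusted p = 6.69e-07) and higher at the fovea in RPE/choroid (1.54, SE 0.47, adjusted p = 0.0219).

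Of 24 fatty acid genes 6 were higher and 12 lower at the fovea in retina (median -0.26), and 9 higher and 3 lower in RPE/choroid (median 0.24). ELOVL4, which makes very long chain fatty acids, was 123 ± 11.2 CPM at the retinal fovea and 260 ± 56.6 CPM at the periphery (-1.02, SE 0.10, adjusted p = 2.05e-06). MFSD2A, a transporter of docosahexaenoic acid, was 3.26-fold higher at the fovea of RPE/choroid by the ratio of means (1.60, SE 0.44, adjusted p = 0.0123). Over all genes the median in each tissue was -0.06.

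The genes with the most similar pattern were found by the Pearson r of log2 CPM over 32 libraries, after the mean of each tissue was removed, among 12675 genes with a mean of at least 1 CPM in both tissues. The libraries share 4 eyes and 2 animals, so each r is a description. BCO2 was most like RLBP1 (r = 0.928), which encodes a retinaldehyde-binding protein of Müller glia and RPE, followed by ST6GALNAC2 (0.926) and FAM161A (0.915). BCO1 was most like ADTRP (0.928), RPE65 (0.922), the visual cycle isomerase, and ERMN (0.919). APOE was most like CDC42EP4 (0.960), FCGRT (0.947) and TSPAN10 (0.938).

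SCARB1 was most like DENND1A (0.915), TMEM132C (0.872) and SLC16A14 (0.866), and GSTP1 like ALDH9A1 (0.915), RENBP (0.902) and LOC106996315 (0.891). STARD3 was most like TCAP (0.881), KIF13B (0.876) and FRMD8 (0.874), and LPL like IP6K2 (0.895), FRMD8 (0.877) and FRMD3 (0.870). CD36 had GM2A (0.727) and LIPA (0.723), both lysosomal lipid proteins, and FBXO40 (0.710). ABCA1 had FBXO28 (0.700), ZMYM5 (0.698) and GALNT1 (0.689), and LIPC had CLDN15 (0.564), GARNL3 (0.545) and LRRC25 (0.513), the weakest likeness of the set. For CD36 and LIPC the retinal libraries add little but counting error, given their few retinal counts.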

How the data were processed

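Poly-A selected RNA from 32 punches (2 tissues, 4 locations, 4 eyes) had been sequenced as 136 lane runs. The authors quantified reads with Salmon 0.13 on Mmul_8.0.1, imported them with tximport and deposited estimated counts for each lane, in a column headed TPM. The values were read as length-scaled estimated counts because lanes summed to between 7932259 and 39439054, not to the fixed total of TPM. A gene symbol was assigned by the authors through orthology. Here 10 repeated entries were dropped, lanes were summed per library and rounded to whole numbers, and CPM was scaled by TMM. Genes passing filterByExpr (minimum count 10) were tested with edgeR 4.0.16 (quasi-likelihood, R 4.3.3), with the monkey as covariate, on fovea, perimacula and periphery of a tissue, on all 4 locations for nasal comparisons, and on all 32 libraries for tissue comparisons. SE is the log2 fold change over the square root of F. The scripts were tested on simulated data.

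Eyes pair libraries, since the same eye of the same animal was punched at each location. Over the 1000 most variable genes, deviations of libraries of 1 eye correlated at a mean r of 0.561 in retina and 0.387 in RPE/choroid, and at 0.0154 and -0.0229 once the monkey mean was removed. DESeq2 1.42.0, other scaling, no filter, no covariate, the eye as block, fewer locations, single flow cells and leaving out each eye were tried.

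Members and lists were chosen with earlier results of these data known. Named genes are the 10 members, the 3 most similar genes of each, and examples among the at most 2 largest changes each way per pathway list that were called, of mean log2 CPM of at least 3, and alike in direction in 4 of 4 eyes. Of 159 pathway and 72 marker genes, 147 and 69 were measured. The others were not analysed here. For 11 with several entries the one with the largest total was used, so their values are uncertain. Coordinates and sequences were not used here. Some genes that the naming rule picks are not reported here.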

Additional observations from a re-analysis of the deposited data

Results flagged for a closer look

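In 3 of 80 groups of 4 eyes 1 library lay far from the other 3 by Dixon's test, which flags about 1 group in 20 by chance. They were APOE in RPE/choroid periphery, where RM03 OD held 2970 CPM, ABCA1 in retina periphery, where RM03 OS held 24 CPM, and ABCA1 in RPE/choroid periphery, where RM03 OS held 147 CPM. The RM03 OS eye was thus highest for ABCA1 in both tissues at the periphery.

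The change with location differed between the tissues for 4 genes by the interaction test. Retina minus RPE/choroid, the log2 fold change of fovea over periphery differed by -2.95 for BCO2, -2.29 for BCO1, -1.23 for APOE and -0.48 for SCARB1. Fovea over nasal location differed by -1.86 for BCO2 and -1.34 for APOE, and fovea over perimacula by -2.09 for BCO2.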

How the results depend on the processing

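Of 65 called comparisons of single genes 49 were called under every alternative tried and none changed sign. Among calls between the tissues, only BCO2 at the perimacula was lost. The location calls lost in retina were SCARB1 and LPL against perimacula, BCO1, STARD3 and LPL against nasal, and STARD3 and GSTP1 against periphery. Those lost in RPE/choroid were SCARB1, CD36, STARD3 and GSTP1 against periphery. Tissue differences lost were BCO2 against perimacula and nasal, and SCARB1 and BCO1 against periphery. Another scaling moved the median of all genes by at most 0.04 on the log2 scale. Each gene has 1 entry, so summing entries gives the same values. Of 400 recomputed mean levels 5 moved by more than 1 SD, all with unscaled CPM. With the eye as a replicate block, LPL in retina lost its call against the perimacula (adjusted p = 0.0556), and genes called in RPE/choroid numbered 1 against the perimacula (7 without the block) and 30 against the nasal location (57 without it). It changed no other call of the 10 genes and moved no other count by over 1.5 times.

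Without the covariate, called members fell to 1 of 10 for retina fovea against perimacula (3 with it) and to 3 against nasal (5 with it), and genes called to 1 and 4 for RPE/choroid fovea against perimacula and nasal and to 1641 for the tissue difference against the perimacula (2494 with it). For RPE/choroid fovea against perimacula DESeq2 called 315 genes, the compared locations alone 357, and the single flow cells 322 and 261. Against nasal the counts were 477, 346, 379 and 445, and 1 member was called with the compared locations alone and with 1 flow cell. In RM03 alone, added after seeing the data, 2929 genes and 2 members were called in RPE/choroid fovea against periphery, compared with 6911 and 6.

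Leaving out 1 eye gave 3225 to 4800 genes for retina fovea against perimacula, 0 to 5 and 0 to 10 for RPE/choroid against perimacula and nasal, and 867 to 1890 and 2510 to 3133 for the tissue difference against perimacula and nasal. Members called ranged from 1 to 2 and 3 to 6 in retina against perimacula and nasal, and from 0 to 1, 1 to 2 and 2 to 5 for the tissue difference against perimacula, nasal and periphery.

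Signs changed in 22 cases, none of a called value. Uncalled values passed the threshold in 25 cases, including SCARB1 in retina against periphery with RLE scaling (adjusted p = 0.0419) and DESeq2 (0.0384) and BCO2 between the tissues at the fovea without RM03 OS (-1.31, adjusted p = 0.0242). GSTP1 in RPE/choroid fovea against perimacula was -0.00 and became 0.01 with RLE scaling, no filter, DESeq2 or 1 flow cell and 0.00 with the compared locations alone, with -0.03 to 0.02 on leaving out an eye. STARD3 in RPE/choroid against nasal became 0.00 on 1 flow cell (-0.04 to 0.02 on leaving out an eye). On leaving out an eye, CD36 and ABCA1 in retina against periphery ranged from -0.38 to 0.56 and -0.13 to 0.14, GSTP1 in retina against nasal from -0.12 to 0.16, APOE in RPE/choroid against nasal from -0.00 to 0.15, the tissue difference against perimacula from -0.36 to 0.21 for CD36 and -0.01 to 0.59 for LPL, and that against nasal from -0.11 to 0.06 for SCARB1. In RM03 alone CD36 in retina was -0.60 against periphery, and in RM04 alone LIPC was -0.41 and ABCA1 0.16. The causes were not tested.

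With 2 animals and 4 eyes, differences between individuals are weakly sampled. Retinal CD36 and LIPC, at 41 counts or fewer, give no usable location comparison.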
